A study of Mus musculus and Homo sapiens with 56 samples.

Results

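The genes described here are 30 germline and piRNA pathway genes of the mouse, chosen by name as genes that germ cells use, out of 52459 genes in the deposited count table. They fall into 9 genes of meiosis, 10 genes of the piRNA pathway and 11 other germline genes. The study measured N6-methyladenosine (m6A, a methyl mark on RNA), RNA levels and histone marks, and asked how m6A on chromatin RNA relates to the repressive histone mark H3K9me2. D395A cells were E14TG2a mouse embryonic stem (ES) cells with the D395A substitution in METTL3, the catalytic subunit of the main m6A writer. WT cells were E14TG2a with no such substitution. Both were kept on gelatin with LIF, the MEK inhibitor PD0325901 and the GSK3β inhibitor CHIR99021, and neither received a further treatment. RNA-seq had 2 D395A and 2 WT libraries. The m6A peaks came as 1 D395A list, from 1 immunoprecipitated and 1 input library of chromatin RNA, and 1 WT list, from 2 of each. Whether the D395A cells were 1 clone, and whether replicates were separate cultures, the labels do not say, so p-values measure only the spread between these libraries.

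Germ cells silence transposons with PIWI proteins, which carry small piRNAs as guides to transposon transcripts. Tudor-domain proteins, helicases and mitochondrial anchors hold the PIWI proteins in granules where piRNAs are made. In meiosis, cohesins and HORMA-domain proteins build the chromosome axis, and the synaptonemal complex joins paired axes. In somatic cells many of these genes are kept silent by promoter DNA methylation, H3K9 methylation and a polycomb complex that contains the DNA-binding proteins E2F6, MGA and MAX, and ES cells use the same repressors.

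RNA-seq totals were 12743677 and 18151353 counts in the D395A libraries and 13953069 and 19246342 counts in the WT libraries. Of 17778 genes tested, 71.1% passed an adjusted p of 0.05 in edgeR's quasi-likelihood test with Benjamini-Hochberg adjustment, 36.8% higher and 34.3% lower in D395A, so a call by itself is common in this comparison. Against a fold change of 2, tested with edgeR's glmTreat, 22.7% passed, 15.4% higher and 7.28% lower. Groups of libraries that do not overlap were common too. Both D395A libraries lay above both WT libraries for 7663 tested genes and below them for 7469, and the groups overlapped for 2646. Among the 30 germline genes these counts were 11, 13 and 6. Genes with exons that another gene overlaps on the other strand read higher in D395A. Their median log2 fold change was 2.11 over 284 genes with 50 to 90% overlap and -0.07 over 12377 genes with none, where 32.3% were called higher and 37.1% lower. Handling or counting of the libraries cannot be told apart from genotype. Among the 30 genes, Sycp3 (52.2% overlapped), Tdrkh (36.7%) and Dpep3 (7.01%) are touched by this and are uncertain.

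The ES cell identity of both lines was checked with 8 ES markers. All 8 were tested, and their CPM (counts scaled to library size with TMM factors) summed to 1884 and 1812 in D395A and to 3404 and 3293 in WT. Of these, 7 fell and Sox2 did not pass. None of 8 spermatid markers was tested, and 6 of them, Prm1, Prm2, Tnp1, Tnp2, Acrv1 and Akap4, were at 0 in every library. Of 6 oocyte markers 1 was tested, the egg coat gene Zp3, which did not pass, and Zp1, Zp2 and Oosp1 were at 0 in every library. Markers of gonadal somatic cells summed to 7.38 and 7.55 CPM in D395A and 5.08 and 4.83 CPM in WT, with 2 of 8 higher (Star and Inha) and Hsd3b1 at 0. The 8 fibroblast markers summed to 8.44 and 7.44 CPM in D395A and 10.5 and 10.7 CPM in WT, with Dcn higher (0 in both WT libraries) and Col1a1 and Col1a2 lower. The part of these differences in the results below was not tested.

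RefSeq promoter windows (build GRCm38.p6, 250 bases before to 50 after the annotated start) were matched for 26 of the 30 genes, leaving Rnf17, Piwil2, Tex11 and Spo11 without one. MGA and MAX bind the E-box CACGTG, and E2F6 binds E2F-type sites with the core TCCCGC or its complement GCGGGA. Both were searched on both strands, and a match of each can share at most 1 end base with the other. The E-box stood in 14 of the 26 windows (53.8%), against 7.15% of all 32851 windows. The E2F-type core stood in 10 (38.5%), against 20% of all windows. The windows of the germline genes were also richer in CpG, with a median of 20 CpG, against 7 over all windows, and both motifs contain a CpG. Of the 8701 windows with at least 20 CpG, a limit set after the data were seen, 11.6% held the E-box and 49.4% the E2F-type core. The share with an E-box in the germline set was therefore above that of CpG-rich windows. The 26 germline windows were not held to the same limit, and those of Dpep3 and Magea5 have 12 and 0 CpG. Their share with an E2F-type core was below that of CpG-rich windows, but the sets differ in CpG, so no conclusion is drawn from it. The E-box was in 6 of 8 piRNA windows, 4 of 7 meiosis windows and 4 of 11 other windows. It was in 4 of 8 windows of genes higher in D395A and in 6 of 9 windows of genes lower in D395A. Whether the E-box goes with the direction of change was not tested, and Rnf17 and Tex11, both lower, have no window. The E2F-type core was in 5 of 7 meiosis windows (71.4%), 2 of 8 piRNA windows and 3 of 11 other windows. These counts describe letters in a window and do not show binding.

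The windows of 5 genes with an E-box are printed, chosen from both directions of change. Hormad1 and Sycp3 were lower in D395A, while Sycp1, Ddx4 and Tdrd1 were higher. Each runs 5′ to 3′ on the gene's own strand, and capitals mark the E-box (CACGTG) and the E2F-type core (TCCCGC or GCGGGA). Hormad1 is read from chr3:95559427-95559726 (+), Sycp3 from chr10:88459337-88459636 (+), Sycp1 from chr3:102936051-102936350 (-), Ddx4 from chr13:112652261-112652560 (-) and Tdrd1 from chr19:56825959-56826258 (+).
Hormad1: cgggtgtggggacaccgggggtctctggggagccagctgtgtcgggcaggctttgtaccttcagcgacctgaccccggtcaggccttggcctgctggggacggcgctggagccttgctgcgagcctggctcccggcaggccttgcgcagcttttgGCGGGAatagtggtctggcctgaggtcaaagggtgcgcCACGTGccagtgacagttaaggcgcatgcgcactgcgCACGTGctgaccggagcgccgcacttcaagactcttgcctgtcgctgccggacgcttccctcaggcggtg
Sycp3: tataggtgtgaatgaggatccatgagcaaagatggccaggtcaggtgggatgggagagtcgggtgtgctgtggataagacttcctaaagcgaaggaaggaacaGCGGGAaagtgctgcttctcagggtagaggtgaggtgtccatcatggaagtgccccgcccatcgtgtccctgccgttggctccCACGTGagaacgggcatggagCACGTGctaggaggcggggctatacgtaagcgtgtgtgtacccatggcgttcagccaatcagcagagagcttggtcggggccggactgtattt
Sycp1: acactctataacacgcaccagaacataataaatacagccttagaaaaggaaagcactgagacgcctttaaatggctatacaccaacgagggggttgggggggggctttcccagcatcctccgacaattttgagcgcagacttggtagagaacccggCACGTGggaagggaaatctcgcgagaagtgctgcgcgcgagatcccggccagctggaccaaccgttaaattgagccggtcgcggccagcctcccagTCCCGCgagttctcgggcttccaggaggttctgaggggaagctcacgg
Ddx4: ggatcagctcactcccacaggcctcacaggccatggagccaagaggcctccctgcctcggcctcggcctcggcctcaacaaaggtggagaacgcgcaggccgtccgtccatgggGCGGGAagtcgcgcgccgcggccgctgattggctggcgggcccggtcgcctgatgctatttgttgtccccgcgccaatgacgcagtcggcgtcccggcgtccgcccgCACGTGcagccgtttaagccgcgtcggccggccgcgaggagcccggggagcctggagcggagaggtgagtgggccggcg
Tdrd1: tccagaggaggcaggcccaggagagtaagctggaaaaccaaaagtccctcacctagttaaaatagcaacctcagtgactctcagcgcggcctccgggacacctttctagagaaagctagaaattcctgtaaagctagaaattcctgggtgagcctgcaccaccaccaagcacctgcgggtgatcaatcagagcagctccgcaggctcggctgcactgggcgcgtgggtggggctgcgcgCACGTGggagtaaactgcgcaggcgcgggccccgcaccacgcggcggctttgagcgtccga
With the start base counted as 0, the E-boxes of Hormad1 begin at -57 and -20 and its E2F-type core at -95. Sycp3 has E-boxes at -64 and -43 and an E2F-type core at -147, Sycp1 has an E-box at -94 and a core at 2, and Ddx4 has a core at -136 and an E-box at -29. Tdrd1 has a single E-box at -11 and no E2F-type core. Over all 14 windows with an E-box its first base lies between -246 (Mov10l1) and -11 (Tdrd1).

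**Figure D1:**
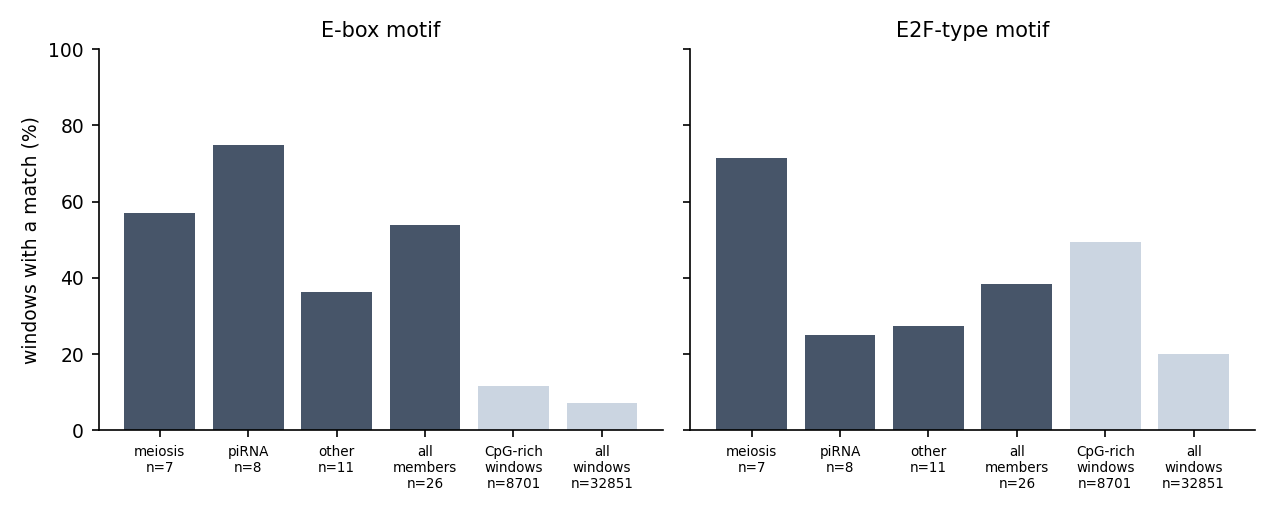
Percent of promoter windows (y axis) with an E-box (left panel) or an E2F-type core (right panel), for the germline genes by role, all 26 germline windows, 8701 windows with at least 20 CpG and all 32851 windows. The E-box is in 53.8% of the germline windows, against 11.6% of CpG-rich windows and 7.15% of all windows.

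Germline RNAs were low but countable in these ES cells. Per kilobase of exon, 5 of the 30 genes reached 10 CPM per kb in D395A and 6 did in WT, while 12 in D395A and 13 in WT stayed below 1 CPM per kb. Rpl10l led in both genotypes, at 67.8 CPM per kb in D395A and 98.7 CPM per kb in WT. Next in D395A came Tex19.1 (33.9 CPM per kb), Stag3 (19.3), Fkbp6 (13.9) and Syce1 (10.8). In WT the order after Rpl10l was Rnf17 (30.2 CPM per kb), Tex19.1 (23.6), Stag3 (22.7), Dazl (12.5) and Fkbp6 (12.1). Rnf17, second in WT, was in place 10 in D395A at 2.02 CPM per kb. Sycp1 moved the other way, to place 11 in D395A at 2.01 CPM per kb, against place 22 in WT at 0.280 CPM per kb. Neighbours such as Tex19.1 and Stag3 in WT, or Dazl and Fkbp6 in WT, lay close to each other relative to the spread of their 2 libraries.

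**Figure D2:**
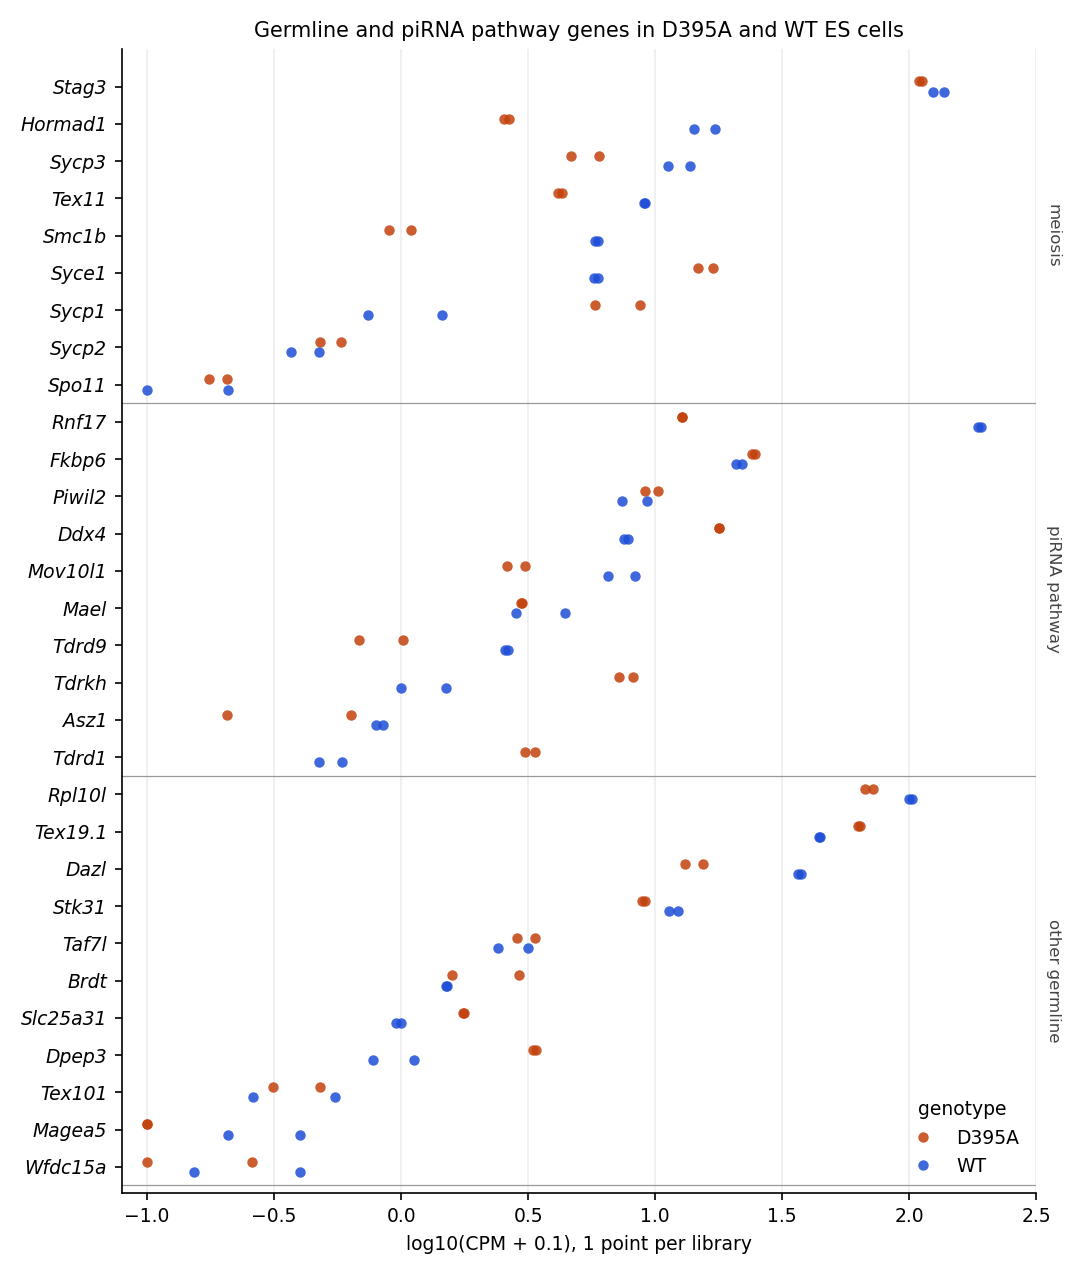
Level of each of the 30 genes in each library on a log10 scale (x axis, log10 of CPM plus 0.1), with D395A points drawn above WT points in each row and genes grouped by role. Rnf17 is near 12.6 CPM in both D395A libraries, against 187 CPM or more in WT, while Tdrd1, Tdrkh and Sycp1 stand to the right in D395A.

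The germline genes did not move as 1 block. Of the 25 tested, 8 were higher and 11 lower in D395A, and 6 did not pass, so that 76% were called, near the 71.1% over all genes tested. Against a fold change of 2, 6 of the 25 were higher (Sycp1, Syce1, Ddx4, Tdrkh, Tdrd1 and Dpep3) and 5 lower (Hormad1, Smc1b, Tdrd9, Rnf17 and Dazl). Of all 17778 genes tested, 15.4% were higher and 7.28% lower by this test. The shares are thus larger among the germline genes, which were chosen with earlier results of these data known. The 2-fold call on Ddx4, with a glmTreat adjusted p of 0.0466, was lost with any 1 of the 4 libraries left out (0.0546 to 0.173) and with no filter on low counts (0.0675). That on Tdrd9 was lost without WT replicate 1 (0.0976), WT replicate 2 (0.123) or D395A replicate 2 (0.232), and that on Dpep3 without WT replicate 1 (0.0823). Over all alternatives the glmTreat adjusted p was 0.0191 to 0.173 for Ddx4, 0.0167 to 0.232 for Tdrd9 and 0.00397 to 0.0823 for Dpep3. The median log2 fold change of the 25 was -0.23, against 0.00 over all genes tested, and their range was -3.90 to 2.88. All 5 genes lower past 2-fold and 4 of the 6 higher past 2-fold have no exonic overlap with a gene on the opposite strand. In bulk RNA, fewer cells with a transcript and less of it per cell cannot be told apart.

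**Figure D3:**
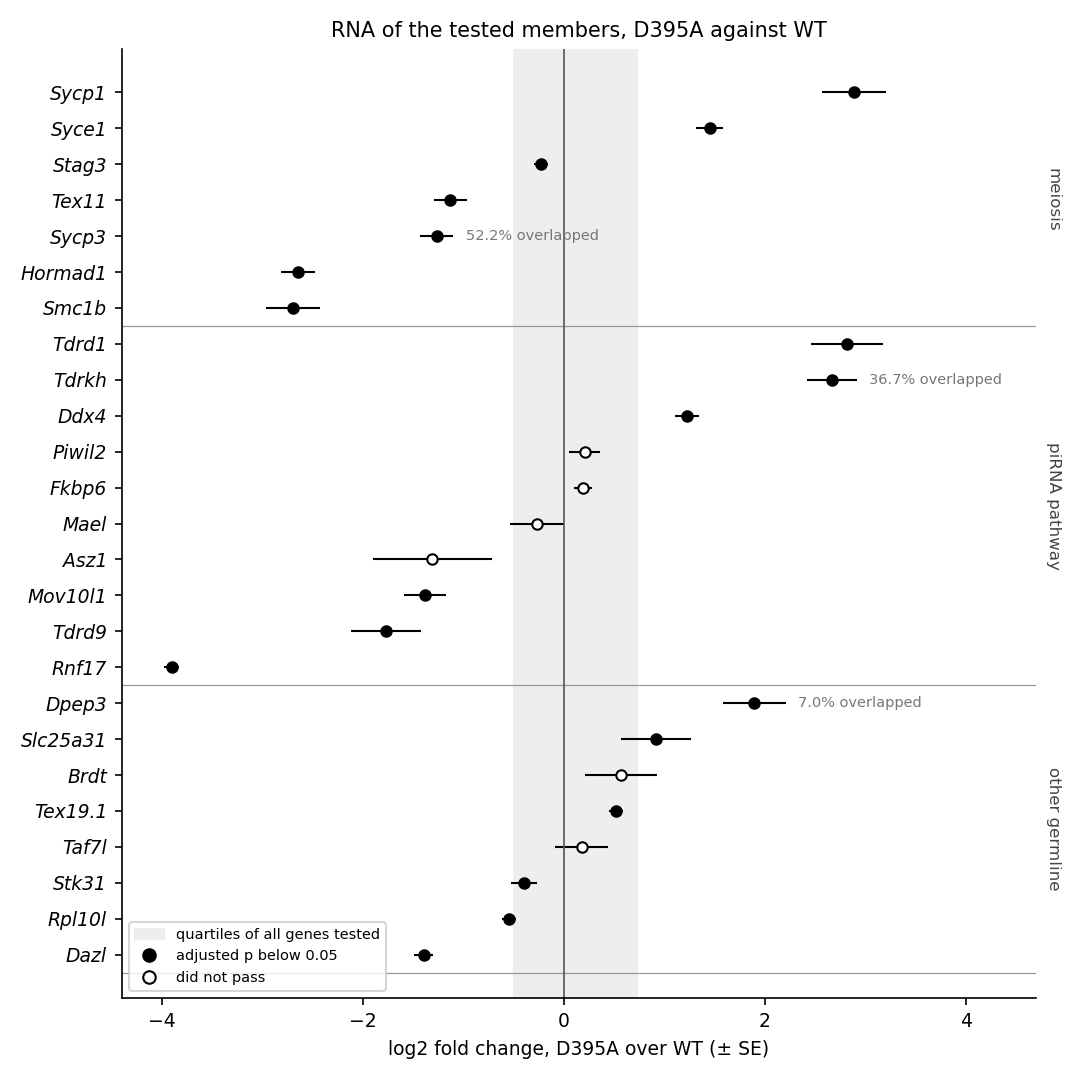
Log2 fold change of D395A over WT (x axis, bars are SE) for the 25 tested genes by role, with filled points for an adjusted p below 0.05 in edgeR's quasi-likelihood test and a grey band for the quartiles of all genes tested, -0.50 to 0.73. Sycp1, Tdrd1 and Tdrkh lie far right and Rnf17, Smc1b and Hormad1 far left. Among the other germline genes Dpep3 lies to the right and Dazl to the left, so both directions occur within each role. Grey text gives the percent of exonic bases overlapped on the opposite strand.

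Among the 9 genes of meiosis, 7 were tested: 2 rose and 5 fell. Thus 100% were called, against 71.1% of all genes tested, of which 36.8% were higher and 34.3% lower. The median log2 fold change was -1.13 and rests on 7 genes that moved both ways. Hormad1, Smc1b, Stag3, Sycp3 and Tex11 fell, and Sycp1 and Syce1 rose.

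Hormad1 encodes a HORMA-domain protein of the meiotic chromosome axis that supports DNA break formation and homolog pairing. It had 2.43 and 2.55 CPM in the D395A libraries, against 14 and 17.1 CPM in the WT libraries. Both D395A libraries lay below both WT libraries, and the RNA was 6.25-fold lower (log2 fold change -2.64 ± 0.17 SE, edgeR adjusted p = 4.74e-09). Smc1b, the meiosis-specific SMC1 subunit of cohesin, had 0.989 and 0.797 CPM in D395A, against 5.83 and 5.69 CPM in WT. Its groups did not overlap either (log2 fold change -2.70 ± 0.27, edgeR adjusted p = 4.75e-07). Smc1a, the cohesin subunit of dividing somatic cells and not a germline gene, had a log2 fold change of -0.60, at 129 and 132 CPM in D395A, against 202 and 194 CPM in WT.

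Stag3 encodes another meiosis-specific cohesin subunit and was the most abundant RNA of the meiosis genes per length. It had 109 and 112 CPM in D395A, against 136 and 123 CPM in WT, a log2 fold change of -0.23 ± 0.07 (edgeR adjusted p = 0.0063). The groups did not overlap, but the adjusted p was 0.169 without WT replicate 1, within a range of 1.98e-04 to 0.169 over the alternatives. Sycp3, a component of the axial and lateral elements, had 5.93 and 4.57 CPM in D395A, against 11.1 and 13.6 CPM in WT (log2 fold change -1.27 ± 0.17, edgeR adjusted p = 8.72e-06). Chpt1 overlaps 52.2% of its exonic bases on the opposite strand, so the level of Sycp3 is uncertain. Chpt1 itself had 24.1 and 20.7 CPM in D395A, against 25.8 and 24.6 CPM in WT, and did not pass.

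Tex11, an X-linked gene for a protein that promotes crossovers and synapsis, had 4.18 and 4.04 CPM in D395A, against 8.97 and 9.01 CPM in WT. The replicates were close within each genotype, and the groups did not overlap (log2 fold change -1.13 ± 0.17, edgeR adjusted p = 2.48e-05).

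Sycp1 encodes the transverse filament that bridges the paired axes. It had 8.6 and 5.69 CPM in D395A, against 1.34 and 0.644 CPM in WT, from 113 and 107 counts in D395A and 18 and 12 counts in WT. Every D395A library was above every WT library, with a 7.38-fold rise (log2 fold change 2.88 ± 0.32, edgeR adjusted p = 1.65e-06). Syce1, a central element protein that binds the transverse filament, had 16.7 and 14.7 CPM in D395A, against 5.83 and 5.63 CPM in WT. It rose as well (log2 fold change 1.45 ± 0.14, edgeR adjusted p = 3.00e-07).

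Sycp2, the partner of SYCP3 in the axial element, and Spo11, the enzyme that makes meiotic DNA breaks, were too low to test. Sycp2 had 5 and 9 counts in D395A and 5 and 5 counts in WT, sums of 14 (exact Poisson 95% interval 7.65 to 23.5) and 10 (4.80 to 18.4). Spo11 had 1 and 2 counts in D395A and 0 and 2 counts in WT, sums of 3 (0.619 to 8.77) and 2 (0.242 to 7.22). The intervals, which cover counting error only, overlap widely for both genes.

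All 10 genes of the piRNA pathway were tested: 3 rose, 3 fell and 4 did not pass (median log2 fold change -0.04). Thus 60% were called, against 71.1% of all genes tested. The summed level of the 10 genes was 82.2 and 81.0 CPM in D395A, against 243 and 239 CPM in WT. A single gene carried this difference. Without Rnf17 the sums were 69.5 and 68.4 CPM in D395A, against 52.7 and 52.9 CPM in WT.

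Rnf17 encodes a RING and Tudor-domain protein of male germ cells that limits piRNA amplification in meiotic cells. It had 12.6 CPM in both D395A libraries, against 191 and 187 CPM in the WT libraries. The difference was 14.9-fold (log2 fold change -3.90 ± 0.08, edgeR adjusted p = 3.31e-14), and no alternative moved it outside -3.93 to -3.85. Tdrd9, a Tudor-domain helicase needed for transposon silencing, had 0.913 and 0.585 CPM in D395A, against 2.47 and 2.52 CPM in WT (log2 fold change -1.77 ± 0.35, edgeR adjusted p = 3.95e-04). Its counts were 12 and 11 in D395A and 33 and 47 in WT. Mov10l1, the helicase that binds piRNA precursors, had 2.51 and 2.98 CPM in D395A, against 8.22 and 6.44 CPM in WT (log2 fold change -1.39 ± 0.21, edgeR adjusted p = 3.40e-05). For all of these genes the D395A libraries lay below the WT libraries.

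Tdrd1 encodes a multi-Tudor scaffold that binds methylated arginines of PIWI proteins. It had 3.27 and 2.98 CPM in D395A, against 0.374 and 0.483 CPM in WT (log2 fold change 2.81 ± 0.36, edgeR adjusted p = 6.52e-06). The WT values of Tdrd1 rest on 5 and 9 counts only, against 43 and 56 counts in D395A. Ddx4, the VASA helicase of germ granules, had 17.7 and 17.8 CPM in D395A, against 7.70 and 7.46 CPM in WT (log2 fold change 1.23 ± 0.12, edgeR adjusted p = 3.82e-07). Both genes were above WT in every D395A library and have no opposite-strand overlap.

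Tdrkh, a mitochondrial Tudor protein that takes part in trimming piRNA ends, had 8.06 and 7.07 CPM in D395A, against 0.897 and 1.40 CPM in WT. Its counts were 106 and 133 in D395A and 12 and 26 in WT. Its groups did not overlap (log2 fold change 2.67 ± 0.25, edgeR adjusted p = 2.34e-07), but 36.7% of its exonic bases are shared with Oaz3 on the other strand. Oaz3 had 7 and 8 counts in D395A and 1 and 0 counts in WT.

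The 4 piRNA genes that did not pass were Piwil2, Fkbp6, Mael and Asz1. Piwil2, the PIWI protein MILI itself, had 8.98 and 10.2 CPM in D395A, against 7.32 and 9.18 CPM in WT, and its groups overlapped (log2 fold change 0.21, edgeR adjusted p = 0.235). Fkbp6, a co-chaperone in PIWI loading, had 24.6 and 23.9 CPM in D395A, against 20.6 and 21.9 CPM in WT (log2 fold change 0.19, edgeR adjusted p = 0.0777). It passed with an adjusted p of 0.026 when genes with opposite-strand overlap were left out, within a range of 0.026 to 0.357 over the alternatives.

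Mael, a nuage protein of the piRNA pathway, had 2.89 and 2.87 CPM in D395A, against 4.33 and 2.74 CPM in WT. The WT libraries stood on both sides of the D395A ones (log2 fold change -0.27, edgeR adjusted p = 0.384), and without WT replicate 1 the value was 0.063. Asz1, a scaffold on the mitochondrial surface, had 0.533 and 0.106 CPM in D395A, against 0.747 and 0.698 CPM in WT. Both D395A libraries were lower, and the gap between them in CPM was wider than that between the group means (log2 fold change -1.31 ± 0.59, edgeR adjusted p = 0.0613). Without D395A replicate 1 its log2 fold change was -2.64 with an adjusted p of 0.0108, the low end of a range of 0.0108 to 0.613 over the alternatives.

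Of the 11 other germline genes, 8 were tested: 3 rose, 3 fell and 2 did not pass (median log2 fold change 0.35). Thus 75% were called, against 71.1% of all genes tested. Dazl, the RNA-binding protein that controls translation in germ cells, had 15.3 and 13.0 CPM in D395A, against 36.4 and 37.4 CPM in WT. It was lower in both D395A libraries (log2 fold change -1.39 ± 0.10, edgeR adjusted p = 8.94e-09). Tex19.1, a gene of placental mammals that restrains retrotransposons in germ cells and ES cells, moved the other way. It had 62.8 and 63.9 CPM in D395A, against 44.4 and 44.0 CPM in WT (log2 fold change 0.52 ± 0.07, edgeR adjusted p = 8.55e-06).

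Rpl10l, an intronless germline copy of the ribosomal protein gene Rpl10, had 72.0 and 66.7 CPM in D395A, against 99.8 and 102 CPM in WT (log2 fold change -0.55 ± 0.07, edgeR adjusted p = 3.78e-06). Because its sequence is close to that of Rpl10, reads may be split between the copies and its level is uncertain. Rpl10 itself had 614 and 520 CPM in D395A, against 528 and 553 CPM in WT, and its groups overlapped (edgeR adjusted p = 0.473). Stk31, a Tudor and kinase domain protein of germ cells, had 8.75 and 9.04 CPM in D395A, against 11.2 and 12.2 CPM in WT (log2 fold change -0.40 ± 0.13, edgeR adjusted p = 0.0128). That call was lost without WT replicate 2 (adjusted p = 0.0819) and in DESeq2 (0.138), within a range of 0.005 to 0.138.

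Dpep3, a membrane dipeptidase of the testis, had 3.20 and 3.30 CPM in D395A, against 0.672 and 1.02 CPM in WT (log2 fold change 1.90 ± 0.32, edgeR adjusted p = 8.30e-05). Its counts were 42 and 62 in D395A and 9 and 19 in WT. Slc25a31, the ADP/ATP carrier of male germ cells, had 1.67 and 1.65 CPM in D395A, against 0.897 and 0.858 CPM in WT. It was called higher (log2 fold change 0.92 ± 0.35, edgeR adjusted p = 0.0288), but the adjusted p was 0.0517 to 0.191 with any 1 of the 4 libraries left out and 0.192 in DESeq2. The call on Slc25a31 is therefore not held by these libraries once 1 is removed.

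Brdt, the testis BET protein that reads acetylated histones, had 2.81 and 1.49 CPM in D395A, against 1.42 and 1.40 CPM in WT. The lower D395A library was close to WT (log2 fold change 0.57 ± 0.36, edgeR adjusted p = 0.168), and without it, D395A replicate 2, the adjusted p was 0.0144, within a range of 0.0144 to 0.815. Taf7l, a germ-cell relative of the TFIID subunit TAF7, had 3.27 and 2.76 CPM in D395A, against 3.06 and 2.31 CPM in WT. Its groups overlapped (log2 fold change 0.18, edgeR adjusted p = 0.56), and the value was -0.039 without WT replicate 2.

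Tex101, a glycoprotein of the germ cell surface, Wfdc15a, of the WAP four-disulfide core family, and Magea5, of the MAGE-A family, were too low to test. Tex101 had 5 and 4 counts in D395A and 6 and 3 counts in WT, a sum of 9 in each genotype (exact Poisson 95% interval 4.12 to 17.1). Wfdc15a had 0 and 3 counts in D395A and 4 and 1 counts in WT, sums of 3 (0.619 to 8.77) and 5 (1.62 to 11.7). Magea5 had no count in either D395A library, which allows a sum of up to 3.69, and 4 and 2 counts in WT (2.20 to 13.1). These counts cannot show a difference for Tex101 or Wfdc15a. The Magea5 intervals overlap, but overlap of separate intervals does not decide whether Magea5 differs, and this was not tested.

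Related lists of genes were counted in the same way. Of 36 further meiosis genes 30 were tested, 12 higher and 10 lower in D395A (median log2 fold change -0.10), so that 73.3% were called, against 71.1% of all genes tested. Stra8, which licenses entry into meiosis, had 211 and 169 CPM in D395A, against 9.56 and 9.28 CPM in WT, a 20.1-fold rise (log2 fold change 4.33, edgeR adjusted p = 5.05e-13). Also higher were Mei4, a DNA break factor (log2 fold change 2.07), Rec8, the meiotic kleisin of cohesin (1.45), and Meioc, which extends the meiotic programme (1.41). Lower were Hormad2, the relative of Hormad1 (-3.38), the break factor Rec114 (-2.56, with 26.9% of its exonic bases overlapped), the central element gene 4930447C04Rik (-2.26) and the mismatch repair gene Mlh3 (-0.997). Hormad2 and Hormad1 thus fell together, while cohesin genes differed: Rec8 rose, and Smc1b and Stag3 fell.

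Of 20 further piRNA pathway genes 16 were tested, 6 higher and 5 lower (median log2 fold change -0.01), or 68.8% called, against 71.1% of all genes tested. Morc1, a repressor of transposons in male germ cells, had 17.5 and 17.2 CPM in D395A, against 177 and 185 CPM in WT. It was 10.4-fold lower in D395A (edgeR adjusted p = 7.86e-14). Mybl1, the transcription factor of pachytene piRNA clusters (log2 fold change -0.85), Gtsf1, a cofactor of PIWI slicing (-1.09), and Pld6, a mitochondrial factor of piRNA formation (-0.76), also fell. Kif17, a motor protein of germ cells (log2 fold change 2.29), and the Tudor genes Tdrd7 (2.17), Tdrd12 (1.6) and Tdrd3 (0.94) rose.

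Of 24 repressors of germline genes, all tested, 8 were higher and 12 lower (median log2 fold change -0.14), or 83.3% called, against the same 71.1%. The DNA methyltransferase gene Dnmt3a was 3.79-fold higher in D395A (edgeR adjusted p = 8.77e-12). The other DNA methylation genes differed from it. Dnmt3l was 3.33-fold lower (log2 fold change -1.74, edgeR adjusted p = 2.67e-06) and was the only repressor lower past 2-fold. Uhrf1 fell (-0.52), Dnmt3b rose (0.35) and Dnmt1 did not pass. Of the polycomb complex named above, Yaf2 (log2 fold change 1.37), Ring1 (0.90), E2f6 (0.86) and Cbx3 (0.50) rose. Mga (-0.42), Max (-0.31), Pcgf6 (-0.26), L3mbtl2 (-0.95, with 17.2% overlapped), Wdr5 (-0.82) and the E2F partner Tfdp2 (-0.65) fell. Rnf2, Rybp and Tfdp1 did not pass. Ehmt2, the G9a enzyme that places H3K9me2, rose (0.64), as did Ehmt1 (0.67). The deacetylase genes Hdac1 (-0.67) and Hdac2 (-0.46) fell, and so did Setdb1 (-0.27) and Cbx1 (-0.15). Of 19 genes of primordial germ cells, 16 were tested, 7 higher and 8 lower (median log2 fold change -0.32), or 93.8% called. Dppa3 (log2 fold change 4.10), Tex13b (2.73), Dmrt1 (1.45) and Lin28a (0.44) rose, whereas Prdm1 (-2.57), Kit (-1.86), Sohlh2 (-1.74) and Pou5f1 (-0.76) fell.

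**Figure D4:**
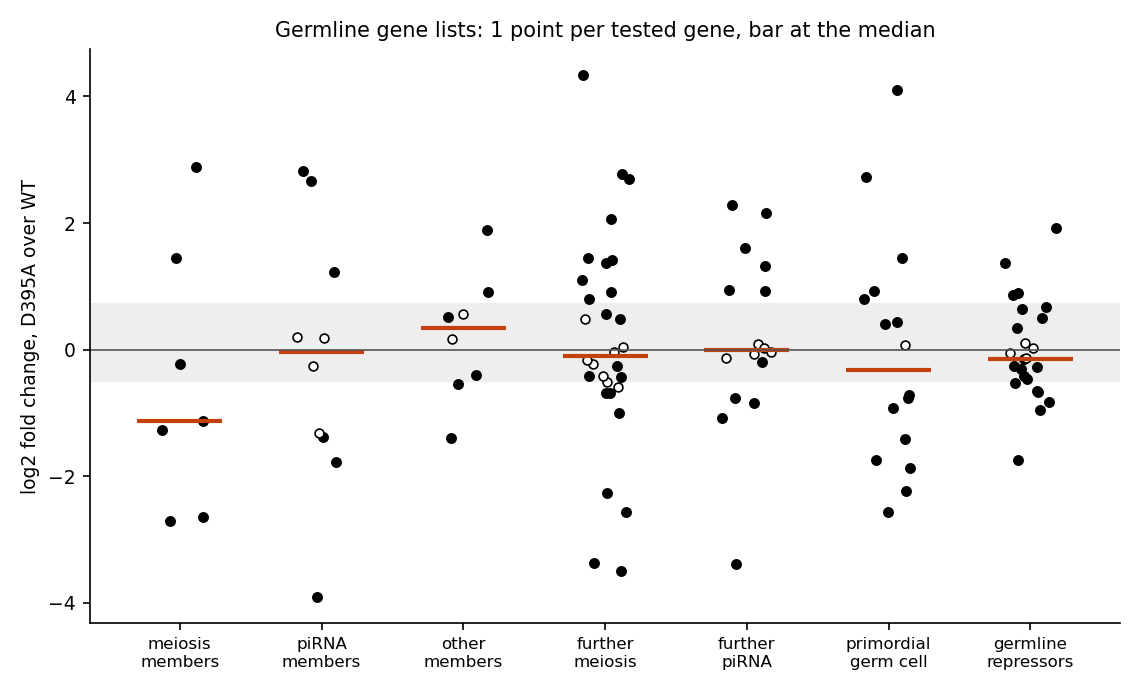
Log2 fold change of D395A over WT (y axis) for each tested gene of the meiosis, piRNA and other germline groups and of 4 related lists, with filled points for an adjusted p below 0.05 in edgeR's quasi-likelihood test, a bar at each list's median and a grey band for the quartiles of all genes tested. Every list has called genes above and below 0, and the medians lie between -1.13 and 0.35.

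The m6A peaks were read from the authors' 2 lists, each peak with the fold enrichment the authors' caller gave it. A gene counted as holding a peak when 1 base or more of the peak lay in its body. The lists differ in threshold and depth is unknown: the WT list was limited by q and the D395A list by p, with a median fold enrichment of 2.66 over the 38823 D395A peaks, against 6.31 over the 48445 WT peaks. With 1 list per genotype there is no replicate check, and the difference in threshold cannot be told apart from genotype. Of the 30 germline genes, 8 held a D395A peak and 12 a WT peak, 4 of them both. Among the 25 tested genes this was 32.0% for D395A and 48.0% for WT, against 52.6% and 66.5% of all genes tested. The sets were not matched for RNA level. Of the 30 germline genes, 12 in D395A and 13 in WT stayed below 1 CPM per kb, and the part of level in these shares was not tested. At q below 0.01, no germline gene kept a D395A peak and 12 kept a WT peak, while 12.5% of all genes tested kept a D395A peak and 66.5% a WT peak.

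The WT peaks in germline genes lay mostly in introns. Of 39 WT peaks 31 (79.5%) touched no exon of the gene, against 31.2% of the WT peak and gene pairs over all genes tested. Peaks of 1 gene are not independent, and 10 of the 31 lay in Tex11. By gene, 6 of the 12 with a WT peak held an exonic one, against 10849 of 11819 over all genes tested. For D395A the 19 peaks were intronic in 13 cases (68.4%), against 67.0% over all genes tested. Of the WT peaks 15 were 1 kb or wider, and 13 of those were intronic. The D395A peaks were 298 to 493 bases wide with a fold enrichment of 1.59 to 3.61, against 277 to 4213 bases and 2.55 to 18.4 in the WT list. Across the lists, 2 D395A peaks and 2 WT peaks overlapped each other, all in Stk31.

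Tex11 held 10 WT peaks, all intronic and with a fold enrichment of up to 15.8, and no D395A peak. Sycp1 held 7 WT peaks, of which 1 touched the first exon (chr3:102935753-102936051, fold enrichment 7.62) and 1 touched internal exons (5.86), and no D395A peak. In Stk31 the WT list had 5 intronic peaks, the strongest 4213 bases wide with a fold enrichment of 18.4 (chr6:49430756-49434968), and the D395A list had 6 peaks, of which 2 touched exons. Rnf17, whose RNA fell most, held 4 peaks in each list, all intronic, with a top fold enrichment of 3.07 in D395A and 11.1 in WT, and 1 of the WT peaks also touches Gm24392.

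Mov10l1 held 1 intronic D395A peak and 4 WT peaks, of which 1 reached the last exon with a fold enrichment of 13.0 (chr15:89054409-89055144) and 1 touched an internal exon (4.46). Smc1b held 1 intronic D395A peak and 3 WT peaks, of which 1 was on the first exon (chr15:85131396-85131975, fold enrichment 8.25). Tex19.1 held 1 WT peak on its last exon (fold enrichment 4.98), Rpl10l held 1 over its single exon (3.44), and Brdt held 1 on an internal exon (10.2). Ddx4, Asz1 and Tdrd9 each held 1 intronic WT peak. Peaks of the D395A list alone were in Stag3 (4, of which 3 touched exons), Sycp3, Tdrkh and Fkbp6 (1 each), and the Sycp3 peak also lies in Chpt1 on the opposite strand. Of the genes past the 2-fold test, Hormad1, Dazl, Syce1, Tdrd1 and Dpep3 held no peak in either list. The others, Sycp1, Ddx4, Tdrkh, Smc1b, Tdrd9 and Rnf17, held a peak in at least 1 list. Of the 25 tested genes 9 held none, against 3775 of 17778 over all genes tested.

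**Figure D5:**
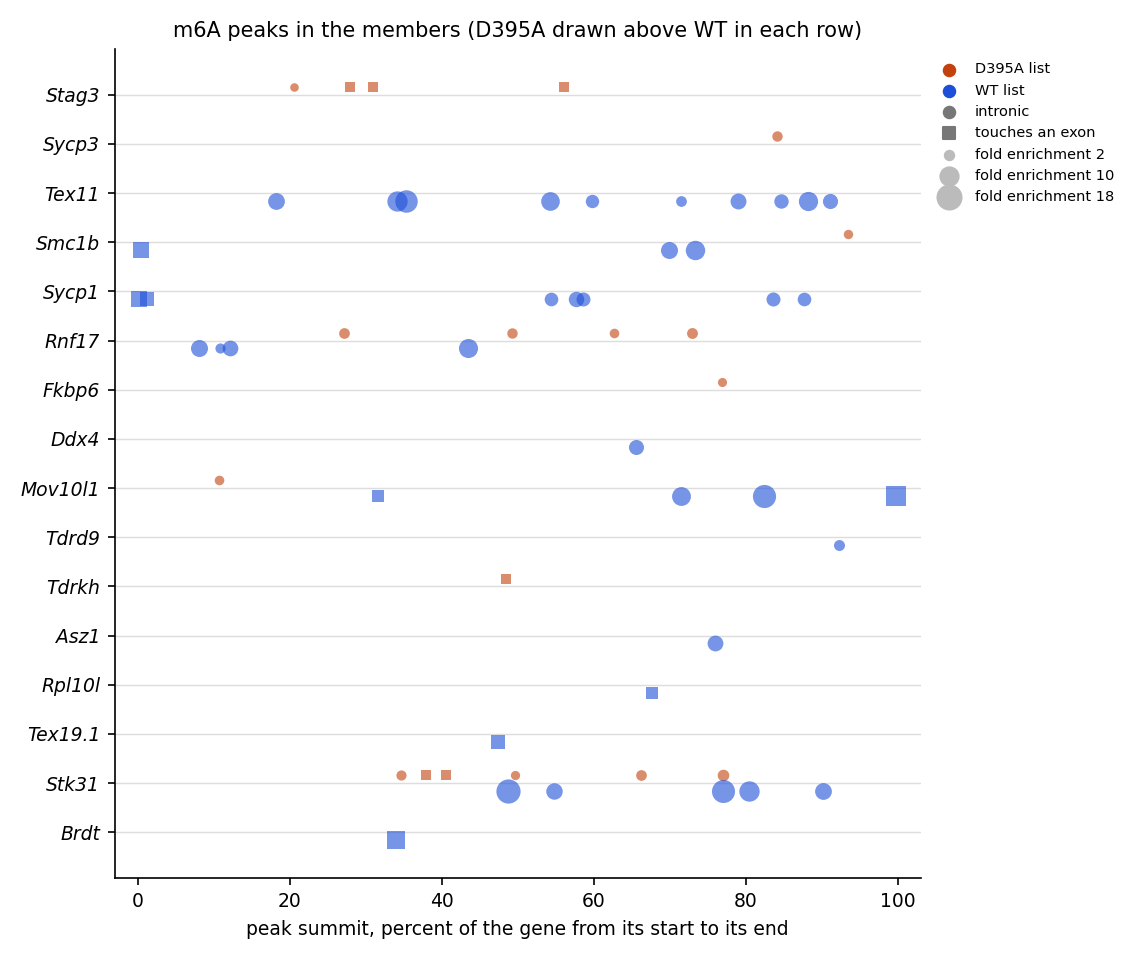
Position of each peak summit along the gene (x axis, percent of the gene from its start to its end) for the 16 germline genes with a peak, with D395A peaks drawn above WT peaks in each row, circles for intronic peaks, squares for peaks that touch an exon and symbol size for fold enrichment. The D395A symbols are small, with a fold enrichment of at most 3.61, and those of the WT list reach 18.4 in Stk31.

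RNA change and WT peaks were set side by side for the 25 tested genes. Of the 12 with a WT peak, 3 rose and 7 fell in D395A (median log2 fold change -0.84), and of the 13 without one, 5 rose and 4 fell (median 0.19). Over all genes tested, 39.7% of those with a WT peak rose and 33.9% fell, against 31.1% and 35.0% of those without one. Whether the germline genes with and without a WT peak differ was not tested.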

How the data were processed

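RNA-seq values are raw read counts per gene, deposited by the authors in the layout of featureCounts with exon coordinates and lengths. Per the submitters' processing notes the tools were HISAT2 2.1.0, Bowtie2 2.3.4.1, Trimmomatic 0.33.0, MACS2 2.1.1, edgeR 3.22.5, SAMtools 1.7, featureCounts 1.6.3, FastQC and Picard 2.16.0, with mm10 for mouse. The steps each tool was used for, and the strand setting of the counting, are not given in the sources. The name of 1 count column differs from D395A by 1 character and was taken as D395A replicate 1. The peak lists are in the narrowPeak layout of MACS2: the deposited score is 10 times the −log10 q in the WT list and 10 times the −log10 p in the D395A list, and the fold enrichment over control and the −log10 p and q of each peak are the authors' values. The smallest deposited −log10 values are 1.31 for q in the WT list and 1.30 for p in the D395A list.

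The counts were fitted with edgeR 4.0.16 in R 4.3.3: filterByExpr (17778 of 52459 genes kept, 21095 had no count), TMM scaling and the quasi-likelihood test of D395A against WT, with Benjamini-Hochberg adjustment over all genes tested and a threshold of 0.05. glmTreat tested against a fold change of 2. CPM used TMM-scaled library sizes, and CPM per kb used the deposited exonic length. Fold changes are fitted values of edgeR. The SE given with them was derived as the absolute log2 fold change divided by the square root of the quasi-likelihood F statistic. Replicates correlated at 0.992 in D395A and 0.994 in WT across genes on the log2 CPM scale, against 0.873 to 0.888 between genotypes. Peaks were intersected with gene bodies and exons by bedtools 2.31.1. Promoter windows and their sequences are from RefSeq (GRCm38.p6). Python 3.11.15 with pandas 2.3.3 and matplotlib 3.10.9 made the tables and plots, and the fit was tested on simulated data.

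The 30 genes and the related lists were chosen with earlier results of these data known. All 30 are named. All 24 repressors of germline genes are named as well. Of each other related list up to 4 called genes per direction are named. These have the smallest adjusted p, at least 1 CPM in a group and groups that do not overlap. Other genes were named after their values were seen. Alternatives were median-of-ratios size factors, DESeq2 1.42.0, other count filters, a replicate block, each library left out, no genes with opposite-strand overlap, and stricter, top-ranked, 50%-inside or exonic peaks. The chromatin immunoprecipitation and HEK293T samples were not analysed here.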

Additional observations from a re-analysis of the deposited data

How the results depend on the processing

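The numbers of germline genes called higher or lower, and past 2-fold, stayed within 1.5 times under every alternative run, although the 2-fold calls on Ddx4, Tdrd9 and Dpep3 did not hold in all of them; with each library left out in turn, where the lone library is assumed to vary like the other genotype's, 7 to 8 were higher and 10 to 12 lower. Of 246 log2 fold changes of single genes under the alternatives, 232 kept direction and call, 8 lost the call, 4 gained it and 2 changed sign: Mael (-0.60 to 0.063 with each library left out, positive without WT replicate 1) and Taf7l (-0.039 to 0.37, negative without WT replicate 2). Neither was called. Leaving out genes with opposite-strand overlap took all genes called higher to 4277, against 6550, and those called lower to 4248, against 6093. Fewer genes were then tested, and those left out had been called higher more often. Over the classes of overlap 41.6 to 76.4% were called higher, against 32.3% of genes with none. Germline genes with a D395A peak were 3 when only exons counted and 0 at q below 0.01, against 8, and those with a WT peak were 6 when only exons counted, against 12. Of all genes tested, 37.2% had an exonic and 12.5% a q below 0.01 D395A peak, and 61.0% an exonic WT peak. The cause was not tested. With the replicate number as a block, 8 germline genes were higher and 12 lower (Asz1 joined, log2 fold change -1.33, edgeR adjusted p = 0.0408), and 6656 and 6239 of all genes. Same-numbered libraries deviated together with r = 0.03 over 17778 genes. This rests on 1 replicate difference per genotype, which also holds counting noise, so it cannot decide whether same-numbered libraries were handled together. Replicate 2 was the deeper library in both genotypes. The 5 untested genes had at most 9 counts in a library.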

Other observations

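The relatives of the germline genes given here were chosen after their values were seen. Tex19.2, the neighbouring paralog of Tex19.1, had 3.12 and 3.03 CPM in D395A, against 0.672 and 0.483 CPM in WT (log2 fold change 2.43 ± 0.34, edgeR adjusted p = 1.81e-05). Magea4, a relative of Magea5, had 0.228 and 0.266 CPM in D395A, against 5.01 and 4.13 CPM in WT (log2 fold change -4.14 ± 0.37, edgeR adjusted p = 1.64e-07). Magea1 had no count in any library, and Magea2, Magea3, Magea6, Magea8 and Magea10 had at most 3 counts in a library. MAGE-A genes are close copies, and reads may be split between them. Rad21, the somatic kleisin of cohesin, was at 312 and 329 CPM in D395A, against 451 and 445 CPM in WT (log2 fold change -0.48 ± 0.07, edgeR adjusted p = 1.37e-05), while its meiotic counterpart Rec8 was 2.73-fold higher in D395A. The somatic subunits Stag1 and Stag2 did not pass, with log2 fold changes of 0.02 and 0.13. Taf7, the somatic relative of Taf7l, had 111 and 102 CPM in D395A, against 99.0 and 106 CPM in WT, and did not pass either.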
